A study of Mus musculus with 68 samples.

Results

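The miR-23, miR-24 and miR-27 microRNAs are cut from 2 paralogous gene clusters, each of which carries a miR-23, a miR-27 and a miR-24 hairpin. They were chosen by name, as all entries of the small RNA table for mir-23a, mir-23b, mir-24-1, mir-24-2, mir-27a and mir-27b, with both arms of each hairpin. This gave 12 of the 480 entries, of which 10 were listed in every library and could be tested among 320 such entries. The 10 entries stand for 9 mature miRNAs, because miR-24-3p has the same sequence at both clusters and an entry at each. The 2 entries differed by at most 1 count in any library, so levels are given as 1 miRNA summed over both loci. Which cluster its reads came from could not be told. The sources used here do not say whether a shared read was split between the entries or counted at each. The scale of the summed level, and of ratios to it, depends on that. Counts of called entries and medians over the 10 entries hold both, so miR-24-3p enters them 2 times.

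The study measured lungs of wild-type male mice of the wild-derived strain CAST/EiJ and the laboratory strain C57BL/6J, which breathed 1,3-butadiene (BD, an inhaled carcinogen) or clean air for 6 h a day on weekdays over 2 weeks. Small RNA libraries numbered 4 for CAST/EiJ under BD, 7 for CAST/EiJ in clean air, 4 for C57BL/6J under BD and 5 for C57BL/6J in clean air, and RNA-seq libraries 6, 7, 6 and 5 in the same order. The labels give neither the age of the mice nor the BD concentration, and they do not say that the libraries of a group came from separate animals, so p-values measure only the spread between these libraries. Fold changes are on the log2 scale, levels are counts per 1000000 (CPM), and a change was called at a Benjamini-Hochberg adjusted p under 0.05 in edgeR's quasi-likelihood test over all tested miRNAs or genes.

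Libraries are named here by the number in their titles, and those numbered over 100 by the whole title (smallRNA_104). Library number 8, labelled CAST/EiJ BD, stands with C57BL/6J in earlier results of these data, so it was kept out of the fits and its values are shown apart. The other 3 CAST/EiJ BD small RNA libraries are numbers 7, 9 and 10. The C57BL/6J BD libraries 15, 16 and 17 were the deepest, with totals of 7676679 to 8474182 counts, against 3146118 in number 18 of the same group and 2066588 to 4184835 in the other groups. Numbers over 100 were held by 5 of 7 CAST/EiJ and 1 of 5 C57BL/6J clean-air libraries and by no BD library. The lung markers Sftpc (6693 to 13396 CPM), Sftpb, Scgb1a1, Ager and Foxj1 were present in all 24 RNA-seq libraries.

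A miRNA is cut as a short duplex from a hairpin, and the arm that is kept guides a silencing complex to messenger RNAs that pair with its seed, bases 2 to 8 from the 5′ end. The hairpins of each of these clusters are transcribed together. The clusters are known for roles in endothelial cells and vessel growth and in T cell differentiation. miR-27 acts on lipid genes such as Pparg and Abca1 and miR-24 on cell cycle genes such as E2f2.

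The mature sequences from RefSeq are shown because the paralogs differ little, which bears on how reads can be assigned. Letters run 5′ to 3′, with the seed in capitals, and positions are on GRCm38.p6. The miR-27 3p arms share the seed UCACAGU, and they differ in 1 of 21 bases, C19U counted from the 5′ end of miR-27a-3p.
miR-27a-3p: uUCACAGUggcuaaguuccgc
miR-27b-3p: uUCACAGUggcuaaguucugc
The miR-23a 3p arm has the seed UCACAUU.
miR-23a-3p: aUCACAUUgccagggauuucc
The miR-24 3p arm is identical at both loci, and its seed GGCUCAG is shared by 5 of the mature miRNAs listed. The 5p arms of its 2 hairpins share their first 16 bases and differ after that, which is where the loci can be told apart.
miR-24-3p: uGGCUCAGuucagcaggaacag
miR-24-1-5p: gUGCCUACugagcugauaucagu
miR-24-2-5p: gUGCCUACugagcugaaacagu
The 5p arms of miR-27 have different seeds, so a read from these arms names its cluster.
miR-27a-5p: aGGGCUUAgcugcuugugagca
miR-27b-5p: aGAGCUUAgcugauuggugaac

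Mir23a, Mir27a and Mir24-2 lie within 404 bases on the plus strand of chromosome 8, at chr8:84208518-84208592, chr8:84208672-84208758 and chr8:84208815-84208921. Mir23b, Mir27b and Mir24-1 lie within 792 bases on the plus strand of chromosome 13, at chr13:63300484-63300557, chr13:63300712-63300784 and chr13:63301208-63301275. The chromosome 13 cluster lies within the span of Aopep, an aminopeptidase gene listed in the RNA-seq table as 2010111I01Rik. The chromosome 8 cluster lies in no listed gene, with Mir181c before it and Zswim4 after it.

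The members made up 4.46 to 5.97% of the total count of each library, and miR-27b-3p alone held 62.8 to 75.9% of that. Among the 320 miRNAs, miR-27b-3p ranked 8 by mean level, miR-27a-3p 30, miR-23b-3p 57 and miR-23a-3p 59. The 2 entries of miR-24-3p ranked 70 and 71, each on its own mean of 1465 CPM, and miR-24-2-5p ranked 94. Summed over both loci, miR-24-3p would rank higher. The remaining arms were rare, with miR-27b-5p at 206, miR-27a-5p at 278 and miR-24-1-5p at 301. The 5p arm of miR-23b was listed in 3 libraries only, with 13 counts in CAST/EiJ clean-air number 2 and 11 and 12 counts in CAST/EiJ BD numbers 7 and 10. That of miR-23a was listed in 1, with 11 counts in C57BL/6J BD number 16. The table listed no value under 10.5, so an unlisted arm may lie anywhere from 0 up to that level, and neither arm was tested.

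**Figure D1:**
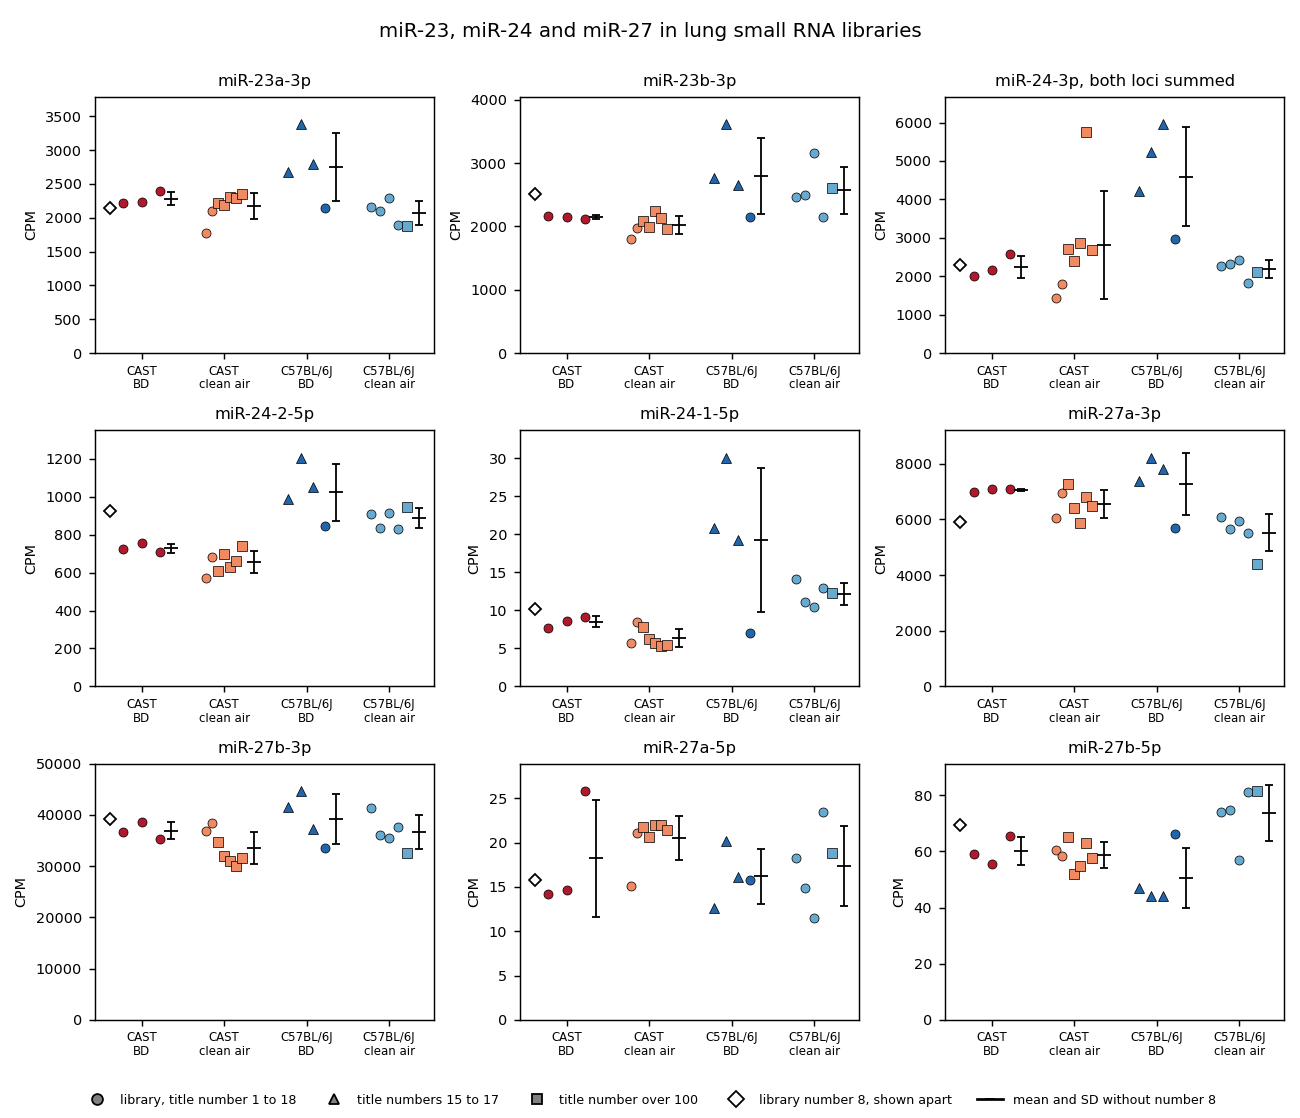
Level of each member in every small RNA library (vertical axes, CPM from 0), by group along the horizontal axes. Points are libraries, bars give the mean and SD without library number 8 (open diamond). miR-24-3p stands at 4208 to 5953 CPM in C57BL/6J BD numbers 15 to 17 (triangles) and at 5765 CPM in CAST/EiJ clean-air smallRNA_104, and no other library is above 2969 CPM.

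To determine how BD changed the clusters in C57BL/6J lungs, BD libraries (n = 4) were set against clean-air libraries (n = 5). Of the 10 entries 5 rose, among them both entries of miR-24-3p, 1 fell and 4 did not pass. This stood against a share called of 31.6% of all 320 miRNAs (19.1% higher and 12.5% lower). The median log2 fold change was 0.30 over the 10 entries and 0.02 over all miRNAs. The highest fold was that of miR-24-3p. Both 3p arms that are specific to the chromosome 8 cluster, miR-23a-3p and miR-27a-3p, rose, and those of the chromosome 13 cluster, miR-23b-3p and miR-27b-3p, did not pass. Within each pair of paralogs the 95% intervals overlapped, at 0.19 to 0.64 for miR-23a-3p and -0.12 to 0.37 for miR-23b-3p. They were 0.18 to 0.61 for miR-27a-3p and -0.089 to 0.29 for miR-27b-3p. A difference in response between the clusters was not tested.

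miR-24-3p, a regulator of cell cycle genes, was measured at 4208, 5235, 5953 and 2969 CPM in C57BL/6J BD libraries 15 to 18, against 2254, 2311, 2433, 1820 and 2100 CPM in clean-air libraries 3 to 6 and smallRNA_106. All 4 BD libraries lay above all 5 clean-air libraries, and 19.1% of all miRNAs had such groups without overlap. It rose 2.10-fold (log2 1.07 ± 0.29 SE, edgeR quasi-likelihood, Benjamini-Hochberg adjusted p = 0.0101). The call held on leaving out any single library, with log2 fold changes of 0.92 to 1.23.

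The opposite arm from chromosome 8, miR-24-2-5p, did not follow to the same extent. It was measured at 988, 1205, 1050 and 846 CPM under BD, against 909, 836, 916, 832 and 948 CPM in clean air, and the groups overlapped. Its log2 fold change was 0.20 (95% interval 0.0030 to 0.40, edgeR unadjusted p = 0.0606, adjusted p = 0.146). For every 1000 counts of miR-24-3p there were 232 ± 44.3 counts of miR-24-2-5p under BD (SD, n = 4) and 410 ± 43.0 in clean air (SD, n = 5). The highest BD library, at 285, lay below the lowest clean-air library, at 362. Because miR-24-3p is summed over both loci, a change between the arms of the chromosome 8 hairpin cannot be told from a change in the chromosome 13 share. This ratio was not tested, and no share of such separation over other arm pairs was taken. Its denominator, miR-24-3p, by itself did not overlap between the same groups. The rare 5p arm from chromosome 13, miR-24-1-5p, was measured at 20.8, 30.1, 19.3 and 6.99 CPM under BD and at 14.2, 11.1, 10.4, 12.9 and 12.2 CPM in clean air. Libraries 15 to 17 were above all clean-air libraries and number 18 was below them all. It rose 1.63-fold (adjusted p = 0.0364), a call that ended on leaving out any of 7 single libraries (numbers 15, 16, 17, 4, 5, 6 or smallRNA_106, adjusted p 0.0514 to 0.202). The call also ended in other settings, among them limma-voom (adjusted p = 0.130) and the C57BL/6J libraries fitted alone (0.11). It was lost as well without the numbers over 100 (0.092) and with unlisted values as 0 (0.086). With number 18 as the only BD library the log2 fold change of miR-24-1-5p turned to -0.78.

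miR-23a-3p was measured at 2678, 3380, 2800 and 2140 CPM under BD, against 2165, 2104, 2284, 1886 and 1881 CPM in clean air. Libraries 15 to 17 were above the clean-air range and number 18 within it. It rose 1.33-fold (adjusted p = 0.0101), and without number 16 it did not pass (adjusted p = 0.0552). miR-27a-3p was measured at 7385, 8216, 7806 and 5685 CPM under BD, against 6104, 5653, 5958, 5522 and 4394 CPM in clean air, with the same arrangement. It rose 1.32-fold (adjusted p = 0.0101), a call that ended without smallRNA_106 and the other numbers over 100 (0.0575) and with the C57BL/6J libraries fitted alone (0.0540). miR-23b-3p averaged 2800 ± 605 CPM under BD (SD, n = 4) and 2573 ± 370 CPM in clean air (SD, n = 5), with a log2 fold change of 0.12 (95% interval -0.12 to 0.37). miR-27b-3p averaged 39247 ± 4835 CPM and 36641 ± 3272 CPM, with a log2 fold change of 0.10 (95% interval -0.089 to 0.29).

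The 5p arm of miR-27b fell. miR-27b-5p was measured at 47.1, 44.3, 44.0 and 66.3 CPM under BD, against 74.0, 74.6, 57.1, 81.1 and 81.5 CPM in clean air, and number 18 again lay within the clean-air range. The fall was 1.47-fold (log2 -0.56 ± 0.13 SE, adjusted p = 0.00351). For every 1000 counts of miR-27b-3p there were 1.32 ± 0.442 counts of miR-27b-5p under BD (SD, n = 4) and 2.02 ± 0.347 in clean air (SD, n = 5). miR-27a-5p had a log2 fold change of -0.10 (95% interval -0.50 to 0.29), and its groups overlapped at 12.7 to 20.2 CPM under BD and 11.5 to 23.5 CPM in clean air.

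The C57BL/6J calls moved with 2 features of the libraries, whose part in them was not tested. With the deep libraries 15 to 17 left out, an alternative chosen after seeing the data, none of the 10 entries and none of the 320 miRNAs were called by edgeR (1 of the 10, miR-24-1-5p, had an unadjusted p under 0.05). The BD arm was then number 18 alone, assumed to vary like the other groups, so the absence of calls there says little about depth, and miR-24-3p had a log2 fold change of 0.46 (adjusted p = 0.706). With a covariate for title numbers 1 to 10, which sets 4 of 5 clean-air libraries against all BD libraries, 2 entries were called. These were miR-27a-3p and miR-27b-5p, with log2 fold changes of 0.51 and -0.60, and miR-24-3p had 0.52 (adjusted p = 0.307).

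**Figure D2:**
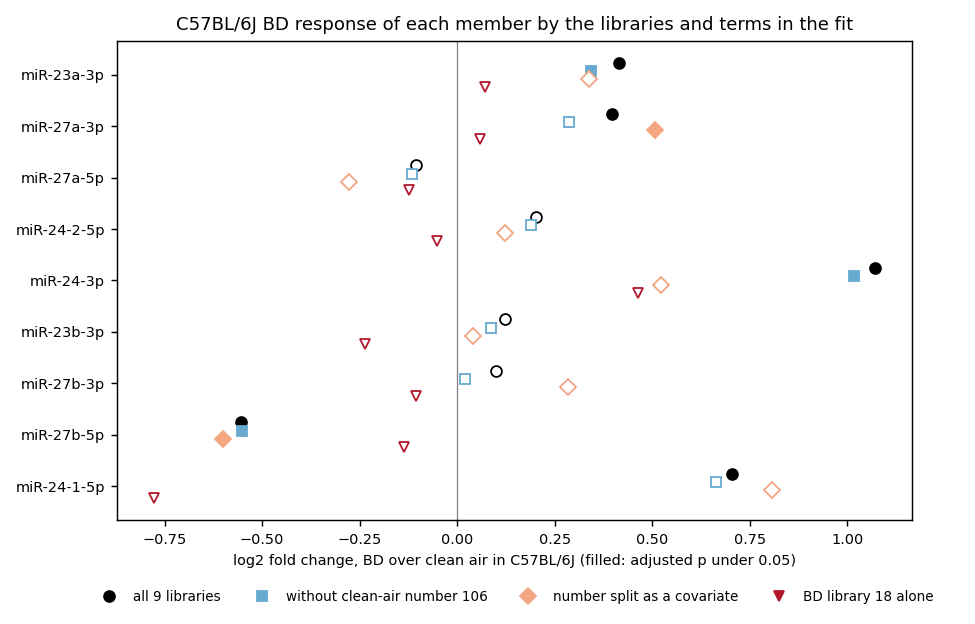
Log2 fold change of each member for BD over clean air in C57BL/6J (horizontal axis) with all libraries, without the numbers over 100, with the covariate for title numbers 1 to 10, and with number 18 as the only BD library; filled symbols have an adjusted p under 0.05. miR-24-3p moves between 0.46 and 1.07, miR-24-1-5p between -0.78 and 0.81, and no symbol of the last setting is filled.

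In RNA-seq of the same groups, 7 of 10 leukocyte marker genes fell under BD in C57BL/6J and none rose, where 10.7% of all genes were called (4.2% higher and 6.49% lower), with a summed level of 312 to 520 CPM under BD and 555 to 724 CPM in clean air. Of 12 endothelial marker genes 1 rose and 3 fell, with 5090 to 6280 CPM under BD and 6163 to 6514 CPM in clean air. The squamous epithelial markers, at 5.51 to 1121 CPM under BD and 4.95 to 1579 CPM in clean air, varied over a wide range in both groups. In whole lung, fewer cells of a type and less RNA per cell cannot be told apart, and whether cell makeup had a part in the levels of these miRNAs was not tested.

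In CAST/EiJ lungs the same comparison, with 3 BD and 7 clean-air libraries, called none of the 10 entries, against 2.81% of all miRNAs (1.25% higher and 1.56% lower). None had an unadjusted p under 0.05 in edgeR, and DESeq2 also called 0. Log2 fold changes lay between -0.32 and 0.40, with a median of 0.08 over the entries and -0.02 over all miRNAs. The interval for miR-27b-3p ran from -0.054 to 0.33 and that for miR-27a-3p from -0.11 to 0.33.

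miR-24-3p was measured at 2017, 2158 and 2565 CPM in CAST/EiJ BD libraries 7, 9 and 10, against 2710, 2390, 2868, 5765, 2684, 1435 and 1800 CPM in clean-air libraries smallRNA_101 to smallRNA_105, 1 and 2. The BD libraries lay inside the clean-air range, which was set by smallRNA_104 at the top and by numbers 1 and 2 at the bottom. Its log2 fold change was -0.32 (95% interval -0.92 to 0.28), and it was 0.48 without the numbers over 100 and 0.20 with the number series as a covariate. Without smallRNA_104 alone it was -0.043. The library smallRNA_104 was not high in the other arms of the same hairpins, with 660 CPM of miR-24-2-5p and 5.32 CPM of miR-24-1-5p, the first inside the range of the other 6 libraries of its group and the second just below their lowest, 5.41 CPM. Library number 8 had 2283 CPM of miR-24-3p.

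The interaction, which sets the response to BD in CAST/EiJ over the response in C57BL/6J, was called for both entries of miR-24-3p and for miR-27b-5p, 3 of 10 against 27.8% of all miRNAs (12.5% higher and 15.3% lower). It was -1.39 ± 0.43 (SE) on the log2 scale for miR-24-3p (adjusted p = 0.0230) and 0.58 ± 0.19 for miR-27b-5p (adjusted p = 0.0256). The call for miR-24-3p ended on leaving out number 7, 9 or 17 (adjusted p 0.0523 to 0.0594), and that for miR-27b-5p on leaving out number 7, 10, 16 or 17 or smallRNA_102 (adjusted p 0.0511 to 0.0814). Without the numbers over 100, and with the covariate for title numbers 1 to 10, edgeR called none of the 10 entries, with 1 and 2 at an unadjusted p under 0.05.

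**Figure D3:**
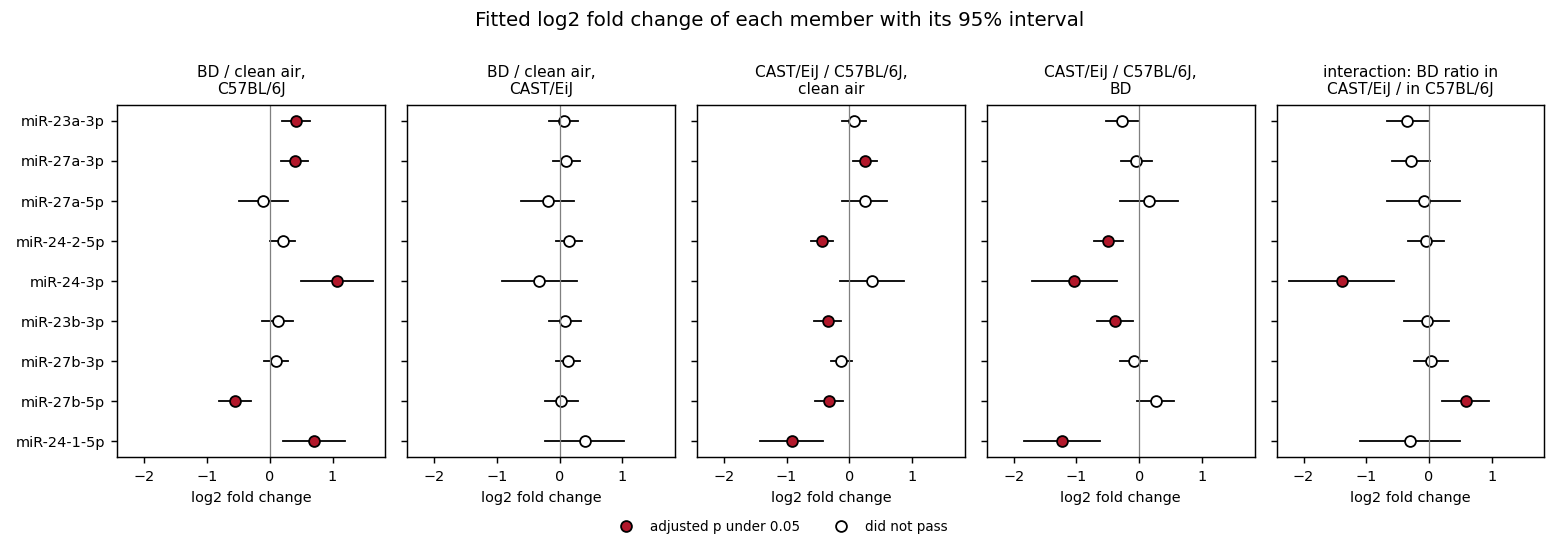
Fitted log2 fold change of each member (points) with its 95% interval (lines) in the 5 comparisons, left to right; filled points have an adjusted p under 0.05. In C57BL/6J under BD miR-24-3p stands at 1.07 and miR-27b-5p at -0.56, in CAST/EiJ under BD every interval spans 0, and both 5p arms of miR-24 are left of 0 in both strain comparisons.

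The strains differed most clearly in the 5p arms of miR-24. In clean air 7 CAST/EiJ libraries were compared with 5 C57BL/6J libraries. Of the 10 entries 1 rose, 4 fell and 5 did not pass in CAST/EiJ, against 39.7% called among all miRNAs (21.2% higher and 18.4% lower). The median log2 difference was -0.03 over the entries and -0.01 over all miRNAs.

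miR-24-2-5p was lower in CAST/EiJ. It was measured at 572, 681, 610, 698, 631, 660 and 740 CPM in CAST/EiJ clean-air libraries 1, 2 and smallRNA_101 to smallRNA_105, against 909, 836, 916, 832 and 948 CPM in C57BL/6J. The strains did not overlap, which 20.3% of all miRNAs shared. The difference was 1.35-fold (log2 -0.44 ± 0.089 SE, adjusted p = 0.000605), and it was called with every library left out and under all other settings tried. miR-24-1-5p was at 5.65, 8.41, 7.81, 6.29, 5.67, 5.32 and 5.41 CPM in CAST/EiJ, against 10.4 to 14.2 CPM in C57BL/6J, again without overlap. It was 1.89-fold lower (adjusted p = 0.00691), and without the numbers over 100 the call ended (log2 -0.79, adjusted p = 0.239).

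miR-24-3p, the arm that both hairpins share, did not follow its 5p arms. It averaged 2808 ± 1405 CPM in CAST/EiJ (SD, n = 7) and 2184 ± 236 CPM in C57BL/6J (SD, n = 5), with a log2 difference of 0.36 (95% interval -0.14 to 0.87). Without smallRNA_104 alone the log2 difference was 0.084. In CAST/EiJ the numbers over 100 held 2390 to 5765 CPM and numbers 1 and 2 held 1435 and 1800 CPM, and without the numbers over 100 the log2 difference was -0.46.

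miR-23b-3p was 1.27-fold lower in CAST/EiJ, at 1795 to 2252 CPM against 2143 to 3160 CPM in C57BL/6J (adjusted p = 0.0165). The call ended without number 5, the highest C57BL/6J library (adjusted p = 0.0718), and without the numbers over 100 (0.0731). miR-27b-5p was 1.25-fold lower, at 52.1 to 65.3 CPM against 57.1 to 81.5 CPM (adjusted p = 0.0301), a call that ended on leaving out any of 7 libraries (numbers 3, 4 and 6, smallRNA_102, smallRNA_103, smallRNA_105 or smallRNA_106, adjusted p 0.0504 to 0.0851). miR-27a-3p was 1.18-fold higher in CAST/EiJ, at 5873 to 7260 CPM against 4394 to 6104 CPM (adjusted p = 0.0499). It kept its call on leaving out only 7 of the 19 libraries in turn, and in the other 12 cases the adjusted p was 0.0516 to 0.138 (numbers 2, 4, 6, 7, 9, 10, 15 and 17, smallRNA_101, smallRNA_104, smallRNA_105 and smallRNA_106). miR-23a-3p and miR-27b-3p had log2 differences of 0.08 (95% interval -0.12 to 0.27) and -0.13 (-0.29 to 0.036).

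Ratios between paralogs gave the strain difference within a library, where scaling between libraries cancels. The values are estimated counts, and the miR-27 3p arms differ in 1 base. The ratios thus also depend on how reads were assigned between paralogs, which was not tested. For every 1000 counts of miR-23b-3p, CAST/EiJ clean-air libraries held 1074 ± 67.9 counts of miR-23a-3p (SD, n = 7) and C57BL/6J clean-air libraries 810 ± 80.6 (SD, n = 5). The lowest CAST/EiJ library, at 991, lay above the highest C57BL/6J library, at 880. Under BD the ratio was 1062 ± 57.7 in CAST/EiJ (SD, n = 3) and 987 ± 50.1 in C57BL/6J (SD, n = 4), whose 4 libraries at 935 to 1053 were all above those of C57BL/6J in clean air. For every 1000 counts of miR-27b-3p there were 191 ± 8.6 counts of miR-27a-3p in CAST/EiJ under BD, 196 ± 20.2 in CAST/EiJ in clean air, 185 ± 17.4 in C57BL/6J under BD and 151 ± 12.2 in C57BL/6J in clean air. In clean air the strains overlapped in the miR-27 ratio, at 164 to 227 in CAST/EiJ and 135 to 168 in C57BL/6J. In both pairs of paralogs the mean ratio was lowest in clean-air C57BL/6J lungs. These ratios were not tested, and no share of such separation over other miRNAs was taken. Library number 8, at 851 for miR-23 and 150 for miR-27, lay within the clean-air C57BL/6J range in both.

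Under BD, 5 of the 10 entries were lower in CAST/EiJ (n = 3) than in C57BL/6J (n = 4) and none was higher, against 41.9% called among all miRNAs (18.4% higher and 23.4% lower). Both entries of miR-24-3p were 2.04-fold lower (adjusted p = 0.0251), miR-24-1-5p 2.34-fold (0.00408), miR-24-2-5p 1.40-fold (0.00279) and miR-23b-3p 1.30-fold (0.0390). miR-24-2-5p was measured at 722, 754 and 708 CPM in CAST/EiJ, against 988, 1205, 1050 and 846 CPM in C57BL/6J, without overlap, as for 44.7% of all miRNAs. Library number 8, labelled CAST/EiJ BD, held 926 CPM, above the 3 other libraries of its label and within the C57BL/6J range. miR-24-3p at 2017 to 2565 CPM in CAST/EiJ and 2969 to 5953 CPM in C57BL/6J did not overlap either, and its call ended on leaving out number 7, 9, 16 or 17 (adjusted p 0.0515 to 0.0853). The call for miR-23b-3p ended on leaving out any of numbers 7, 9, 10, 15, 16 or 17 (adjusted p 0.0515 to 0.161), and with number 8 kept under its label (0.0677).

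With number 18 as the only C57BL/6J BD library, none of the 10 entries was called between the strains by edgeR, with 0 at an unadjusted p under 0.05, and miR-24-1-5p had a log2 difference of 0.25. The C57BL/6J BD libraries enter 3 of the 5 comparisons, which therefore share libraries. In RNA-seq 8 of 10 leukocyte markers were lower in CAST/EiJ in clean air, where 60.4% of all genes were called (29.4% higher and 31% lower), with a summed level of 379 to 501 CPM against 555 to 724 CPM in C57BL/6J. Of 12 endothelial markers 6 were lower and 2 higher (4137 to 5426 CPM against 6163 to 6514 CPM), and of 8 smooth muscle markers 7 were higher and 1 lower (1361 to 2953 CPM against 849 to 1020 CPM). Under BD, where 42.7% of all genes were called (20.4% higher and 22.3% lower), 7 of 12 endothelial markers were lower in CAST/EiJ and none was higher (4425 to 4694 CPM against 5090 to 6280 CPM). Of 5 ciliated cell markers 4 were lower and 1 higher (152 to 239 CPM against 325 to 517 CPM), and of 10 leukocyte markers 3 were lower and 2 higher (275 to 493 CPM against 312 to 520 CPM). The part of these cell types in the strain differences of the miRNAs was not tested.

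Profiles over the 19 libraries were compared by the root mean square difference of log2 CPM after centring each miRNA on its own mean, as a description, among 212 non-members with a mean of at least 50 CPM. miR-24-3p was nearest to miR-34a-5p (0.19), a p53-induced miRNA, and to miR-29b at both of its loci (0.23 each), while its own spread around its mean was 0.56. Its distance to the other abundant members was larger, 0.41 to miR-23a-3p, 0.48 to miR-23b-3p and to miR-27a-3p, and 0.57 to miR-27b-3p. miR-23a-3p was nearest to miR-339-5p, miR-200c-3p and miR-17-5p (0.16 each). Its distance to miR-27a-3p of the same cluster was 0.15, below its distance to its paralog miR-23b-3p (0.19). miR-27a-3p was nearest to miR-186-5p (0.14), miR-29a-3p (0.14) and miR-17-5p (0.15). miR-23b-3p was nearest to miR-151-3p, miR-195-5p and miR-10a-5p (0.18 each) and stood at 0.14 from miR-24-2-5p of the other cluster. miR-27b-3p was nearest to miR-574-3p (0.12), miR-151-3p (0.13) and miR-872-3p (0.13). The own spreads of miR-23a-3p, miR-23b-3p, miR-27a-3p and miR-27b-3p were 0.21, 0.25, 0.21 and 0.15. Such a spread is also the distance to a flat profile, and several of the distances above are not far below it. All libraries entered each value, so the strain and title-number patterns are part of it.

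In RNA-seq, which was tested over 17377 genes, the genes at the clusters moved little under BD. Aopep (2010111I01Rik) was measured at 70.8 ± 2.63 CPM in C57BL/6J under BD (SD, n = 6) and 80.2 ± 5.27 CPM in clean air (SD, n = 5). It fell 1.13-fold (adjusted p = 0.0418), where 10.7% of all genes were called (4.2% higher and 6.49% lower), and the call ended on leaving out any of 12 of the 23 libraries, among them each of the 6 C57BL/6J BD libraries (adjusted p 0.05002 to 0.136), and with number 8 kept (0.0634). In CAST/EiJ Aopep stood at 70.4 ± 6.05 CPM under BD (SD, n = 5) and 76.0 ± 2.61 CPM in clean air (SD, n = 7, adjusted p = 0.183). Next to the chromosome 13 cluster, Fancc, a Fanconi anemia DNA repair gene, was 2.35-fold lower in CAST/EiJ in clean air, at 17.4 ± 2.29 CPM (SD, n = 7) against 40.8 ± 4.79 CPM in C57BL/6J (SD, n = 5, adjusted p = 4.06e-11), where 60.4% of all genes were called (29.4% higher and 31% lower). Under BD it was 1.92-fold lower (adjusted p = 1.08e-08), where 42.7% were (20.4% higher and 22.3% lower). Gm16907 on the other side was 1.75-fold lower in CAST/EiJ in clean air (adjusted p = 1.30e-05) and 1.31-fold lower under BD (0.0238), a call that ended on leaving out CAST/EiJ BD number 10, 11 or 12 or C57BL/6J BD number 13 (adjusted p 0.0526 to 0.0739). Zswim4, next to the chromosome 8 cluster, averaged 30.2 to 35.9 CPM in the 4 groups and was called in no comparison. Mir181c held 0 to 2 counts and was not tested.

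The RNA-seq table also lists the 6 hairpin genes, at 3 to 150 counts per library, and these were chosen after their values were seen. Reads of Mir23b, Mir27b and Mir24-1 cannot be told apart from reads of Aopep, which spans them. None of the 6 was called for BD in either strain. Mir27a was 2.15-fold lower in CAST/EiJ in clean air, at 0.428 ± 0.202 CPM (SD, n = 7) against 0.961 ± 0.403 CPM in C57BL/6J (SD, n = 5, adjusted p = 0.00301), and not past the threshold without the numbers over 100 (0.0567). In the same groups mature miR-27a-3p was 1.18-fold higher in CAST/EiJ. Under BD Mir24-2 was 1.58-fold higher in CAST/EiJ, with 1.77 ± 0.354 CPM (SD, n = 5), than in C57BL/6J, with 1.122 ± 0.2244 CPM (SD, n = 6, adjusted p = 0.00583), and not past the threshold with number 8 kept (0.0575). The mature miR-24-2-5p was 1.40-fold lower in that comparison. The hairpin and the mature levels thus had opposite signs in both cases, in libraries of different assays.

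**Figure D4:**
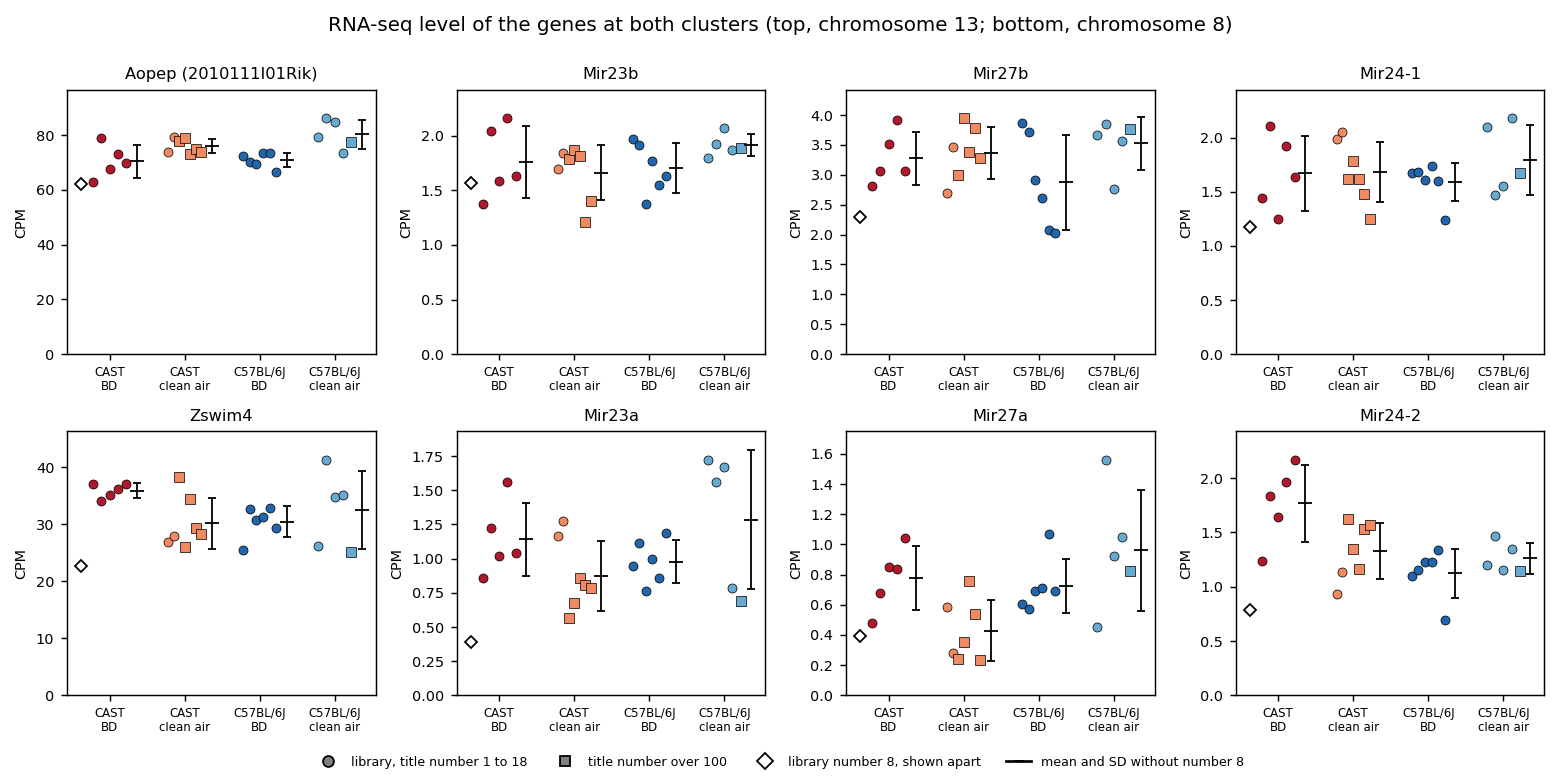
RNA-seq level (vertical axes, CPM from 0) of the genes at the chromosome 13 cluster (top) and the chromosome 8 cluster (bottom) by group; points are libraries, bars the mean and SD without library number 8 (open diamond). Aopep averages 70.4 to 80.2 CPM in the 4 groups, and the hairpin genes stay under 4 CPM.

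Reported target genes of the 3 miRNAs, 61 in all, were taken from general knowledge and were not searched for sites here. In C57BL/6J under BD 11 of 61 (18%) were called, 6 higher and 5 lower, against 10.7% of all genes (4.2% higher and 6.49% lower). Of 24 miR-24 targets 3 rose and none fell, with a median log2 fold change of 0.15 against -0.0024 over all genes. These were the mitotic kinase Cdk1 (1.94-fold, adjusted p = 0.00302), cyclin A2 (Ccna2, 1.41-fold, 0.0137) and the mitotic kinase Aurkb (1.41-fold, 0.0462). Cdk1 was measured at 5.39 to 6.84 CPM under BD, with a median of 5.75, against 2.32, 2.20, 2.71, 3.14 and 4.68 CPM in clean-air libraries 3 to 6 and RNA_106. The call for Ccna2 ended without clean-air number 4 (adjusted p = 0.0538). That for Aurkb ended on leaving out any of 14 libraries (0.0506 to 0.122) and with number 8 kept under its label (0.0571). These targets and miR-24-3p were thus higher in the same group.

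Of 18 miR-23 targets 1 rose and 3 fell in C57BL/6J under BD, with a median log2 fold change of -0.17. Cxcl12, a chemokine that retains leukocytes and progenitors, fell 1.65-fold to 129 ± 9.69 CPM (SD, n = 6), against 212 ± 19.1 CPM in clean air (SD, n = 5, adjusted p = 0.000175). The signalling adaptor Tab2 fell 1.24-fold (0.00581) and Sema6d, a semaphorin, 1.23-fold (0.0252, lost on leaving out any of 5 libraries). The death receptor Fas, also a p53 target, rose 1.47-fold to 66.8 ± 8.09 CPM under BD (SD, n = 6), against 45.2 ± 5.41 CPM in clean air (SD, n = 5, adjusted p = 0.00181). Of 19 miR-27 targets 2 rose and 2 fell. The cholesterol exporter Abca1 rose 1.40-fold (0.00138) and lipoprotein lipase (Lpl) 1.53-fold (0.0309, lost on leaving out any of 6 libraries), while Sema6a fell 1.38-fold (0.0130, lost without clean-air number 4) and the T cell factor Gata3 1.58-fold (0.0466, lost on leaving out any of 15 libraries). With number 8 kept under its label, the calls of Sema6d, Sema6a and Gata3 also ended (adjusted p = 0.0807, 0.059 and 0.0953).

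In CAST/EiJ under BD 3 of 61 targets (4.92%) were called, against 7.22% of all genes (3.86% higher and 3.37% lower), and all 3 rose. Bcl2l11, a pro-apoptotic Bcl2 relative and reported target of miR-24, rose 1.33-fold to 37.0 ± 3.85 CPM (SD, n = 5), against 27.7 ± 1.92 CPM in clean air (SD, n = 7, adjusted p = 0.00669). Of the miR-27 targets, the thyroid hormone receptor Thrb rose 1.28-fold (0.0190, lost without BD number 7) and Abca1 1.24-fold (0.0345, lost on leaving out any of 7 libraries). Without the numbers over 100 none of these 3 calls held (adjusted p 0.142 to 0.552).

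The interaction was called for 9 of 61 targets (14.8%), against 9.44% of all genes (5.62% higher and 3.82% lower), 8 of them with the higher BD ratio in CAST/EiJ. It was positive on the log2 scale for Bcl2l11 (0.64, adjusted p = 0.00778), Cxcl12 (0.57, 0.0249) and Sema6a (0.79, 0.0139), and negative for Fas (-0.76, 0.0107). Without the numbers over 100 the calls of Cxcl12 and Sema6a ended (adjusted p 0.154 and 0.0856), and that of Cxcl12 also without C57BL/6J clean-air number 4 or CAST/EiJ BD number 10 (0.0546 to 0.0620). Fas at 37.4 to 41.9 CPM in the 5 CAST/EiJ BD libraries lay below the 59.0 to 77.3 CPM of C57BL/6J BD, and library number 8 held 74.7 CPM. With that library kept, the interaction for Fas did not pass (0.0802).

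Between the strains 35 of 61 targets (57.4%) were called in clean air, 13 higher and 22 lower in CAST/EiJ, against 60.4% of all genes, and 31 (50.8%) under BD, 12 higher and 19 lower, against 42.7%. In clean air Cxcl12 was 3.23-fold lower in CAST/EiJ (adjusted p = 2.80e-12). Among miR-24 targets Trib3, a pseudokinase, was 2.31-fold higher (2.01e-06) and E2f2, a cell cycle transcription factor, 1.67-fold lower (5.77e-07). Among miR-27 targets Pparg, a nuclear receptor of lipid metabolism, was 1.72-fold higher (2.64e-07) and Phb, prohibitin, 2.01-fold higher (8.53e-08), while Sema6a was 2.52-fold lower (1.13e-09). In this comparison the median log2 difference was -0.14 over the miR-23 targets, 0.12 over the miR-24 targets and -0.16 over the miR-27 targets, against -0.00050 over all genes. Proteins that make and use miRNAs, 16 genes, were called lower in 9 cases and higher in 3 in CAST/EiJ in clean air, with a median log2 difference of -0.34 and a share called of 75%, against 60.4% of all genes. For BD 2 of them fell and none rose in C57BL/6J (12.5%, against 10.7% of all genes), and 4 rose and none fell in CAST/EiJ (25%, against 7.22%). The interaction was called for 4 of them, all positive (25%, against 9.44%).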

How the data were processed

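Lung small RNA-seq (20 libraries) and RNA-seq (24) were used, and the chromatin samples were not analysed here. Reads were aligned to mm9 with Bowtie and GSNAP, per the submitters' processing notes, with versions and counting tools not given in the sources used here. The deposited small RNA values are estimated counts per arm and locus, 64.1% of them whole within 1e-06, and were rounded. The deposited RNA-seq values are raw read counts per gene. Every CAST/EiJ-labelled RNA-seq library, number 8 among them, listed 23872 genes and every C57BL/6J library 23893. Small RNA entries listed in every library held 99.95 to 99.97% of the counts in CAST/EiJ-labelled libraries and 98.4 to 99.0% in C57BL/6J. Whether alignment or listing by strain had a part in the strain differences was not tested. Small RNA totals were 2066588 to 8474182 and RNA-seq totals 10601756 to 50001571 counts.

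edgeR 4.0.16 (R 4.3.3) was fitted with TMM scaling, 1 mean per group and robust quasi-likelihood tests over 320 miRNAs or 17377 genes, without library number 8 (19 and 23 libraries). Standard errors came from the F statistic, and 95% intervals are 1.96 of them, which is narrower than the F test implies. Alternatives were DESeq2 1.42.0, limma-voom 3.58.1, other scaling, filters, covariates and left-out libraries. The code was tested on simulated data.

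Members and lists were chosen with earlier results of these data known. Named targets are at most 3 per list, direction and comparison with the smallest p among those called, of which some are printed. Sequences are from RefSeq (352 of 480 entries matched); its build, GRCm38.p6, differs from mm9.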

Additional observations from a re-analysis of the deposited data

Results flagged for a closer look

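Of 70 groups of at least 4 libraries examined for a single library apart from the rest, 8 held one, where chance gives about 1 in 20 (3.5). In small RNA these were 5765 CPM of miR-24-3p in the CAST/EiJ clean-air library smallRNA_104, far above the rest of its group, 15.1 CPM of miR-27a-5p in CAST/EiJ clean-air number 1, below its group, and 66.3 CPM of miR-27b-5p in C57BL/6J BD number 18, above its group. The total of that last library, 3146000 counts, was also far below the other totals of its group. In RNA-seq, C57BL/6J BD number 17 was high in Mir27a with 1.069 CPM, number 18 was low in Mir24-2 with 0.6939 CPM and in Mir24-1 with 1.239 CPM, and C57BL/6J clean-air number 5 was low in Mir27b with 2.764 CPM. The response to BD differed between the strains by the interaction test, with log2 ratios (CAST/EiJ over C57BL/6J) of -1.39 for miR-24-3p at both loci and 0.58 for miR-27b-5p.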

How the results depend on the processing

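No paired analysis was possible because no 2 groups of an assay share a title number, and replicate numbers only follow accession order. The cause of each change below was not tested, except that leaving out libraries also leaves fewer samples. With the covariate for title numbers 1 to 10, the called member entries were 2 in place of 6 for BD in C57BL/6J, 1 in place of 5 between strains under BD and 0 in place of 3 for the interaction. Without libraries 15 to 17 they were 0, 0 and 1, and miR-24-1-5p turned to log2 -0.78 for BD in C57BL/6J and 0.25 between strains under BD. Without the numbers over 100 they were 1 in place of 5 between strains in clean air and 0 for the interaction, and 1 for the interaction with the number series as covariate. miR-24-3p turned to 0.48 without the numbers over 100 and 0.20 with either covariate for BD in CAST/EiJ, and to -0.46 and -0.056 between strains in clean air.

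Called targets for BD in C57BL/6J were 7 in place of 11 with library number 8 kept, 17 with the compared groups alone, 18 without the numbers over 100 and 19 with the number series. For BD in CAST/EiJ they were 5 in place of 3 by DESeq2, 8 with number 8 kept, and 1 with the groups alone or with the number series. For the interaction they were 3 in place of 9 without the numbers over 100 or with the number series.

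With single libraries left out, called member entries ranged over 4 to 7 for BD in C57BL/6J, 0 to 0 in CAST/EiJ, 3 to 5 between strains in clean air, 2 to 7 under BD and 0 to 5 for the interaction, and called targets over 5 to 15, 2 to 8, 32 to 36, 27 to 33 and 3 to 15. The member count in clean air was 3 without number 4 or 6, smallRNA_105 or smallRNA_106, that under BD 2 without number 7, 9, 16 or 17, and the interaction 0 without number 7 or 17, 1 without number 9 and 5 without number 18. Called targets for BD in C57BL/6J were 5 without RNA-seq number 4 and 7 without number 3, 17 or 18, and in CAST/EiJ 8 without number 1 and 7 without number 12. For the interaction they were 3 without number 4 or 10, 5 without number 3, 5, 16 or 17 or RNA_104, and 15 without number 1 or RNA_106. The arms under 20 CPM rest on few counts.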
